A study of Mus musculus with 45 samples.

Results

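Fgf5, Otx2, Pou3f1, Lef1, Sox3, Zic2, Utf1, Sall2 and Tdgf1 were followed across all groups of an RNA-seq study of mouse embryonic stem cells (mESCs). These 9 genes are associated with the formative and primed states of the epiblast. They were chosen by name, with earlier results of these data known, and each had a single row among the 55401 genes of the count tables. The study removed or inhibited EHMT2, a methyltransferase that deposits H3K9me2, and asked which genes responded in bulk mESC cultures, in 2-cell-like cells (2CLC) and in cells lacking Dppa4. It comprised 45 libraries in 15 groups of 3.

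In the time course, clones of EHMT2-dTAG-mcherry mESCs of BL6/129 strain, in which a degron tag on EHMT2 allows its removal by dTAG-13, received DMSO or dTAG for 24 h or 7 d. In the washout experiment these clones received DMSO for 15 d, dTAG for 15 d, or dTAG for 7 d followed by 8 d in DMSO (called Recovery). In the sorting experiment EHMT2-dTAG cells that also carried a MERVL-GFP reporter received DMSO or dTAG for 72 h and were separated into GFP-negative cells (called mESC) and GFP-positive cells (called 2CLC). All these groups, the DMSO controls included, carried the degron allele. In the Dppa4 experiment WTJ1 mESCs and mESCs depleted of DPPA4 by CRISPR/Cas9 were treated for 48 h with DMSO or with UNC0638, which inhibits the EHMT enzymes. The 3 libraries of each Dppa4 group came from independent clones, so that p-values measured the spread between these clones, and clone and genotype differences add up in KO against WT. All cells grew in FBS/LIF medium on mouse embryonic fibroblast feeders. The DMSO mESC and 2CLC labels were checked against their markers: the 11 2-cell stage markers summed to 88.0 CPM in DMSO mESC and 13842 CPM in DMSO 2CLC, where CPM is the per-million level, a value scaled by the summed gene counts of its group or library.

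Before implantation the epiblast holds naive pluripotency, and after implantation it passes through a formative state, in which it becomes competent for germ layer and germ cell specification, to a primed state. FGF and ERK signalling, NODAL signalling through Cripto, and the transcription factors OCT6 and OTX2 accompany that passage, and WNT signals act in it through TCF and LEF factors. In FBS/LIF cultures mESCs fluctuate between these states. Fgf5 encodes a secreted fibroblast growth factor that is a classical mark of the postimplantation epiblast, and Tdgf1 encodes Cripto, the membrane-anchored co-receptor of NODAL. Otx2, Pou3f1 (OCT6), Lef1, Sox3, Zic2 and Sall2 encode transcription factors, and Utf1 encodes a chromatin-associated factor of pluripotent cells.

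The members lay on 7 chromosomes in mm10 (GENCODE vM21 annotation), with Otx2 (chromosome 14, 48657677 to 48673819), Zic2 (122475435 to 122479852) and Sall2 (52311172 to 52328762) together on chromosome 14. Fgf5 lay on chromosome 5, 98254184 to 98277030, Pou3f1 on chromosome 4, 124656807 to 124660655, Lef1 on chromosome 3, 131110471 to 131224356 and Sox3 on chromosome X, 60891366 to 60893430. Utf1 (chromosome 7, 139943789 to 139945112) and Tdgf1 (chromosome 9, 110939603 to 110946158) completed the set, and Pou3f1 and Sox3 were annotated with a single merged exon each. Otx2, Pou3f1 and Lef1 overlapped other annotated genes, which makes their counts uncertain, since the counting at its default setting does not use strand. The highest value of any overlapping gene found in the tables was 2.76 normalized counts, for Gm2164, which lies antisense to Pou3f1.

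Promoter windows from 250 bases before to 50 bases after the start were matched in RefSeq (GRCm38.p6, the same assembly as mm10) for 6 of the 9 members. The windows of Otx2, Lef1 and Utf1 are shown because, of those 6, only these had transcripts more than 2-fold lower in 2CLC than in mESC in both treatment arms. The RefSeq start need not be the outermost start of the GENCODE gene. In Otx2 and Utf1 it lay inside the gene, and the Lef1 window ended before the GENCODE gene began. Each is written 5′ to 3′ on the strand of its gene, with capitals marking the GC box GGGCGG on either strand. The windows are chr14:48667595-48667894 (minus strand) for Otx2, chr3:131110047-131110346 (plus strand) for Lef1 and chr7:139943606-139943905 (plus strand) for Utf1.
Otx2: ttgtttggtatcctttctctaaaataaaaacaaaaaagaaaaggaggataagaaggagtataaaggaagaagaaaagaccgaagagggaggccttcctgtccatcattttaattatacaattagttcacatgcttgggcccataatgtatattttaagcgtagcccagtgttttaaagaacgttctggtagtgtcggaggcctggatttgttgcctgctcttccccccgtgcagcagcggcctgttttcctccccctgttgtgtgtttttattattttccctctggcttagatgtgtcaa
Lef1: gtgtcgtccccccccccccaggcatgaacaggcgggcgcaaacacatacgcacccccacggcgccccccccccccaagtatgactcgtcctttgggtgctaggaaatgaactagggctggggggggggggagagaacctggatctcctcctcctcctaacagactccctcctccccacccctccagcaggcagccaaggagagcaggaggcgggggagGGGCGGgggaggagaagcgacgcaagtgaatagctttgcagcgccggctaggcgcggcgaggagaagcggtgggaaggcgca
Utf1: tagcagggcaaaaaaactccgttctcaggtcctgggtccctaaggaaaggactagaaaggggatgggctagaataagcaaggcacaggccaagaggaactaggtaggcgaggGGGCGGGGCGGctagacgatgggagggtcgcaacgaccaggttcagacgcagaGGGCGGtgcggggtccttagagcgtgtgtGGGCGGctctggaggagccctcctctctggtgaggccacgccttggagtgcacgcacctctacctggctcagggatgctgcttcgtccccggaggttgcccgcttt
The Utf1 window held 4 GC boxes, a pair of which overlapped, the Lef1 window held 1 and the Otx2 window held none. A GC box was present in 35.9% of all 27025 promoter windows of the same length. The G and C content was 62.0% in Utf1, 67.3% in Lef1 and 41.7% in Otx2, against a median of 52.7% over all windows. The other motifs searched, on both strands and with overlaps between motifs kept, were CCAAT (37.9% of all windows), TATAAA (14.2%) and the octamer ATGCAAAT (1.75%). TATAAA was found in the Otx2 window, CCAAT in none of the 3 shown, and the octamer in none of the 6. No searched motif was present in all 3 windows.

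Levels of different members are compared as normalized counts per kb of merged exon, where a normalized count is a read count divided by the size factor of its library. Tdgf1 and Utf1 were the 2 most abundant members per kb in all 15 groups, Tdgf1 ranking first in 9 and Utf1 in 6. Alignment without introns loses reads that span exon junctions, and the members had 1 (Pou3f1, Sox3) to 14 (Lef1) merged exons. Tdgf1 had 7 and Utf1 2, and read length differed between the experiments, which makes the order of the members uncertain. In WT DMSO cells, Utf1 had 3949 ± 358 per kb (SD, n = 3) and Tdgf1 2107 ± 199.8 per kb, and their libraries did not overlap. Pou3f1 followed at 106 ± 59.9 per kb, then Zic2 at 72.7 ± 4.56 per kb, and the libraries of this pair overlapped. Among Otx2 at 44.4, Sox3 at 36.9, Lef1 at 31.6 and Sall2 at 20.4 per kb, each overlapped with the next of these in the order. Fgf5 was lowest at 5.92 ± 5.90 per kb, and its libraries did not overlap with those of Sall2. By these counts, Cripto and UTF1 transcripts, both also abundant in naive mESCs, stood far above those of the transcription factors and of the FGF ligand.

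To set all 15 groups beside each other, each value was expressed in CPM, although the 4 tables were normalized separately. Reads were longer in the sorting and Dppa4 experiments, which can affect counts aligned without introns in genes with several exons. Fgf5 ran from 0 in both Dppa4 KO groups and 0.0382 in DMSO 7 d to 1.91 CPM in dTAG 15 d. Sox3 ran from 1.01 in dTAG 7 d to 93.3 CPM in DMSO 2CLC, the widest range in fold terms of the 8 members that were detected in every group. Lef1 ranged from 0.916 in dTAG 2CLC to 31.4 CPM in KO DMSO. Tdgf1 had the narrowest range in fold terms, from 522 to 1576 CPM.

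**Figure D1:**
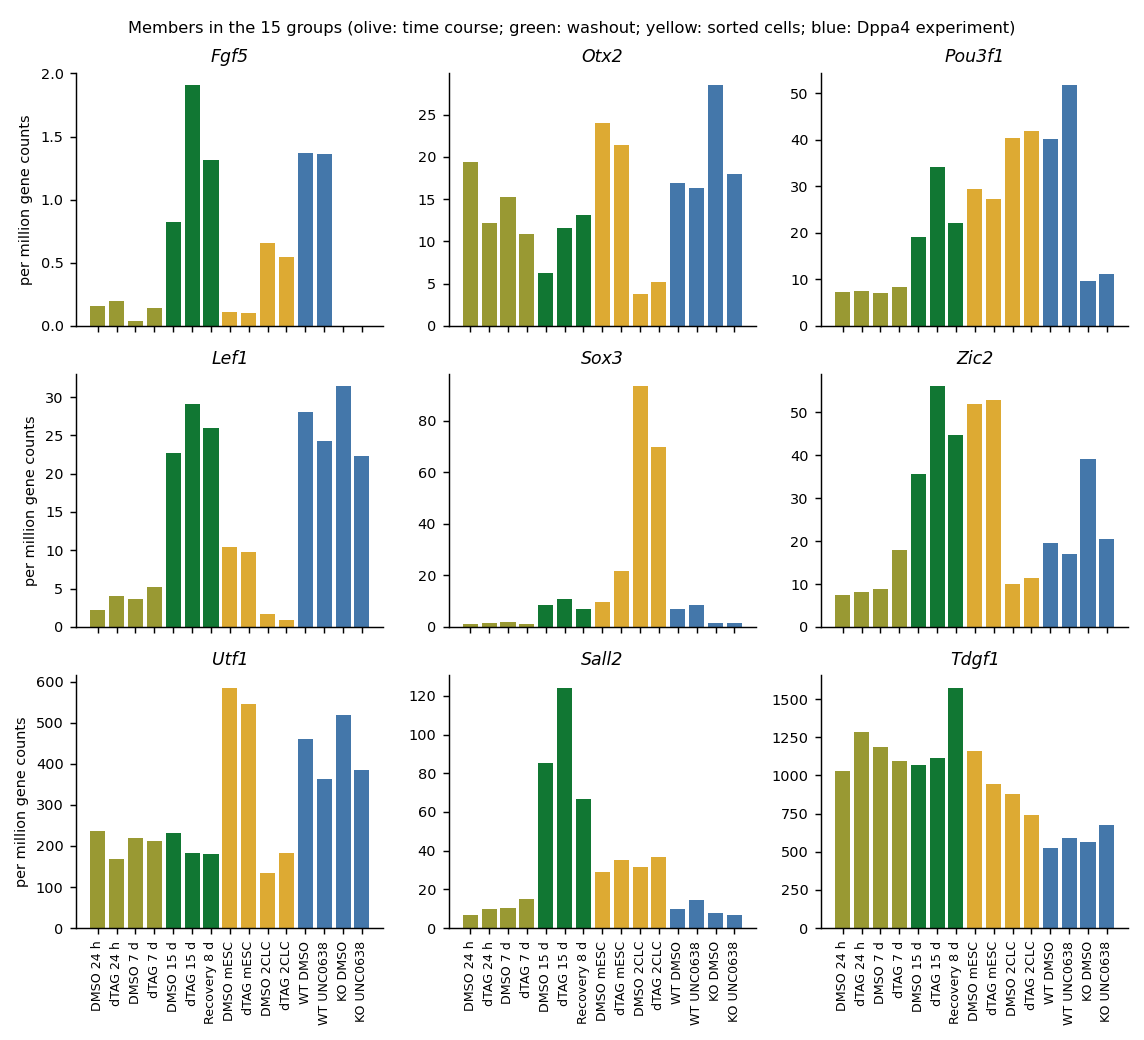
Each panel gives 1 member in the 15 groups as bars of the per-million level, CPM (linear axis from 0), group means without error bars because 3 of the 4 tables hold means only. Sox3 stands highest in the 2CLC groups (93.3 and 69.7 CPM), Sall2 in the 3 washout groups, and Fgf5 is at 0 in both KO groups.

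Most of the transcription factors and Fgf5 stood higher in the washout experiment than in the time course. Fgf5, Pou3f1, Lef1, Sox3, Zic2 and Sall2 were each higher in all 3 washout groups than in all 4 time course groups. Comparing DMSO 15 d with DMSO 7 d, Sall2 had 85.4 against 10.2 CPM, a ratio of 8.36, and Lef1 had 22.7 against 3.70 CPM, a ratio of 6.15. Sox3 was at 4.32 times and Zic2 at 4.04 times its level in DMSO 7 d, while Otx2 was at 0.405 times. Of the 8 members with an average of at least 10 normalized counts, 5 were past 2-fold higher and 1 lower. Of all 17705 genes, 1050 (5.93%) were past 2-fold higher and 4390 lower, 30.7% in either direction (median log2 ratio of all genes -0.28). In the same groups the 15 naive pluripotency genes summed to 2477 CPM at 15 d and 4537 at 7 d, and the 15 other formative genes to 2728 and 959 CPM. Feeder fibroblast markers summed to 152 and 126 CPM. Time in culture, experiment and normalization cannot be told apart in this comparison, which had no test, and in these bulk samples fewer cells of a type and less RNA per cell cannot be told apart either.

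Within the time course, dTAG for 24 h or 7 d left most members within 2-fold of DMSO. The table held the authors' group means, so that the log2 ratio of means (each plus 1) is a description with no replicate spread and no test. Fgf5 averaged under 10 normalized counts in each of these comparisons and was left out of the counts. At 24 h, Lef1 had 58.8 normalized counts with dTAG and 31.3 with DMSO, a log2 ratio of 0.89. Otx2 had 178 and 281 normalized counts, a log2 ratio of -0.65. Lef1 was the member farthest above DMSO and Otx2 the one farthest below, and 0 of 8 members were past 2-fold, against 4.74% of all 17970 genes.

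At 7 d, Zic2, a zinc finger transcription factor, was the only member past 2-fold. It had 268 normalized counts with dTAG and 127 with DMSO (log2 ratio 1.07), where 8.39% of all genes were past 2-fold. Sox3 had 15.1 and 28.4 normalized counts (log2 ratio -0.87), which placed it lower with dTAG at 7 d after a ratio of 0.47 at 24 h. Pou3f1 stood at 125 and 103 normalized counts, and Tdgf1 and Utf1 had log2 ratios of -0.06 and 0.01. Between the DMSO cultures at 7 d and 24 h, 0 of 8 members were past 2-fold (1.89% of all genes), Lef1 being highest at 0.75. The 7 d comparisons share the DMSO 7 d group. The 2-cell stage markers summed to 465 CPM in dTAG 7 d and 20.3 in DMSO 7 d, and 11 of 11 of them were past 2-fold higher there.

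In the washout experiment all 9 members averaged at least 10 normalized counts, Fgf5 included. Fgf5 had 17.6 normalized counts in DMSO 15 d, 39.1 in dTAG 15 d and 28.7 in Recovery. It was the only member past 2-fold with dTAG (log2 ratio 1.10, against 5.12% of all genes), and with a pseudocount of 5 in place of 1 it was not. Pou3f1 had 409, 698 and 482 normalized counts in the same order, and Sall2 1833, 2547 and 1465. For Fgf5 and Pou3f1 the Recovery mean lay between both others, and for Sall2 it lay below both. The 2-cell stage markers summed to 24.4 CPM in DMSO 15 d and 655 in dTAG 15 d (11 of 11 past 2-fold higher) and the primitive endoderm markers to 34.9 and 65.1 CPM, and their part in the dTAG ratios was not tested.

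Otx2 alone among the transcription factors had its highest mean in Recovery. It had 133 normalized counts in DMSO 15 d, 237 in dTAG 15 d and 287 in Recovery. It was the only member past 2-fold in Recovery against DMSO (log2 ratio 1.10, against 2.39% of all genes). Tdgf1 also had its highest mean in Recovery, at 34503 normalized counts, against 23002 in DMSO 15 d and 22845 in dTAG 15 d. In Recovery against dTAG 0 of 9 members were past 2-fold (7.13% of all genes), and Sall2 was farthest from 0 at -0.80. These 3 comparisons share their groups pairwise, and the feeder markers summed to 62.6 CPM in Recovery, 210.4 in dTAG 15 d and 152 in DMSO 15 d, whose part in the ratios was not tested.

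Among the comparisons of group means within a table, the sorted populations gave the widest differences among the members. Against DMSO mESC, DMSO 2CLC had lower Otx2, Lef1, Zic2 and Utf1 and higher Sox3, by group means without a test. Sox3, a SOXB1 factor of the epiblast and neural lineage, had 83.4 normalized counts in DMSO mESC and 908 in DMSO 2CLC (log2 ratio 3.43). With dTAG it had 188 in mESC and 803 in 2CLC (log2 ratio 2.09). Sox3 was thus higher in 2CLC in both arms, and its mean in dTAG mESC lay between the DMSO mESC and DMSO 2CLC means.

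Otx2, a homeobox factor that accompanies the naive to formative passage, had 210.2 normalized counts in DMSO mESC and 36.7 in DMSO 2CLC (log2 ratio -2.49). Lef1, a nuclear effector of WNT signalling, had 91.6 and 16.6 normalized counts (log2 ratio -2.40). Zic2 had 455 and 97.7 normalized counts (log2 ratio -2.21). Along with Utf1, at 5129 and 1296 normalized counts (log2 ratio -1.98), these formed the group of lower members. In the dTAG arm the same 4 were past 2-fold lower, with log2 ratios of -1.61 for Otx2, -2.90 for Lef1, -1.80 for Zic2 and -1.17 for Utf1. Otx2, Lef1 and Utf1 are the members whose promoter windows are written out above.

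Tdgf1 and Sall2 differed little between the sorted populations. Tdgf1 had 10127 normalized counts in DMSO mESC and 8522 in DMSO 2CLC (log2 ratio -0.25), and Sall2 had 252 and 309 (log2 ratio 0.29). Pou3f1, the POU factor OCT6, had 257 and 393 normalized counts in the DMSO arm (log2 ratio 0.61) and 238 and 483 in the dTAG arm (log2 ratio 1.02). Fgf5 stood under the minimum, at 0.926 normalized counts in DMSO mESC and 6.39 in DMSO 2CLC. In all, 5 of 8 members were past 2-fold in the DMSO arm, against 23.7% of all 17277 genes, and 6 of 8 in the dTAG arm, against 21.1%. Both Sox2 (11238 and 3736 normalized counts in the DMSO arm) and Sox1 (1221 and 181), the SOXB1 paralogs of Sox3, were lower in 2CLC, in the direction opposite to Sox3. The feeder markers summed to 61.6 CPM in DMSO mESC and 126 in DMSO 2CLC, and their part was not tested. The populations were defined by the MERVL-GFP gate alone.

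Within a sorted population the dTAG and DMSO means were closer. In mESC, Sox3 had 188 normalized counts with dTAG and 83.4 with DMSO (log2 ratio 1.16) and was the only member past 2-fold, against 6.86% of all genes. The other 7 members lay between -0.31 for Tdgf1 and 0.29 for Sall2. In 2CLC, 0 of 8 members were past 2-fold (7.35% of all genes), the highest being Utf1 (0.71) and Otx2 (0.70) and the lowest Lef1 (-0.61). The 2-cell stage markers summed to 1174 CPM in dTAG mESC against 88.0 in DMSO mESC, beside the higher Sox3. Feeder markers summed to 115 and 61.6 CPM in the same groups (5 of 9 past 2-fold higher, median log2 ratio 1.03), and to 195 CPM in dTAG 2CLC against 126 in DMSO 2CLC (7 of 10 higher). The part of both marker lists in these ratios was not tested. The 4 sorted comparisons share groups, so that they are not independent of each other.

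**Figure D2:**
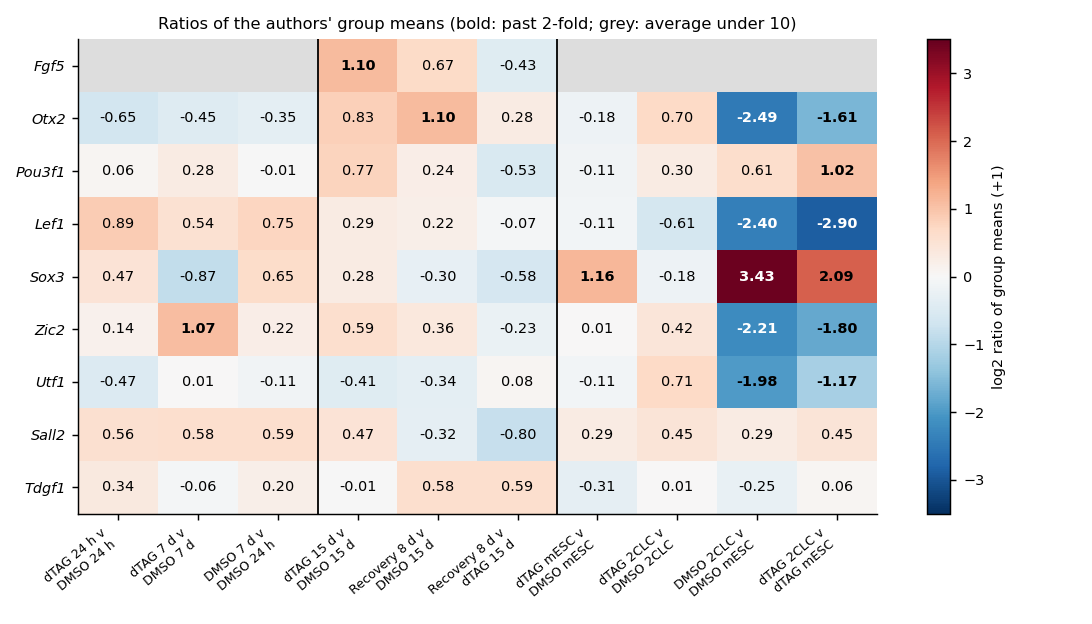
Rows are the members and columns the 10 comparisons of the authors' group means, with the log2 ratio of means written in each cell and coloured from blue (lower) to red (higher); cells are grey where the average was under 10. The 2 columns on the right, 2CLC against mESC, hold the largest values, from -2.90 for Lef1 to 3.43 for Sox3.

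The Dppa4 experiment gave values for each library and so a test. Its 12 libraries held 8399885 to 12710949 gene reads, Dppa4 had 700.4 to 920.5 normalized counts in the 6 WT libraries and 0 in the 6 KO libraries. Ehmt2, whose protein is the target of dTAG and UNC0638, had 310.0 to 631 normalized counts, a transcript level that does not check either treatment. All 9 members were among the 17258 genes tested. A gene was called when its adjusted p in limma, over all genes tested, was under 0.05 and its change at least 2-fold. Overlap or separation of the libraries of 2 groups is given as description only, since the share of all genes without overlap was not counted. Between KO and WT in DMSO, 1 of 9 members was called, Sox3, which was lower in KO, against 4.43% of all genes. In the comparison of KO with WT in UNC0638, which was added after the values were seen, 1 of 9 was called, again Sox3, against 3.29% of all genes.

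Sox3 had 68.6, 87.3 and 72.6 normalized counts in the 3 WT DMSO libraries and 15.7, 15.3 and 16.3 in the 3 KO DMSO libraries. All KO DMSO libraries lay below all WT DMSO libraries (log2 fold change -2.20, SE 0.59, adjusted p = 0.035). With UNC0638, WT had 28.2, 86.9 and 125 and KO 16.6, 4.30 and 28.8 normalized counts, and the groups overlapped between the lowest WT and the highest KO library (log2 fold change -2.29, SE 0.59, adjusted p = 0.035). Leaving out 1 library moved the UNC0638 estimate between -2.91 and -1.59. The DMSO call was lost without any 1 of the 6 DMSO libraries and without WT UNC0638 replicate 2, with adjusted p in limma from 0.052 to 0.12 in these 7 fits. The UNC0638 call was lost without WT UNC0638 replicates 2 or 3 or KO UNC0638 replicates 1 or 2 (adjusted p in limma from 0.054 to 0.16), and both were lost with no filter on low values (adjusted p = 0.067 and 0.057 in limma).

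Fgf5 and Pou3f1, a ligand and a POU factor, also had their lowest values in KO but were not called. Fgf5 had 0, 29.5 and 14.9 normalized counts in WT DMSO, 9.69, 18.7 and 12.0 in WT UNC0638 and 0 in all 6 KO libraries. WT DMSO replicate 1 was also at 0, so that the DMSO groups overlapped, whereas the UNC0638 groups did not. Being at 0 in KO, Fgf5 passed the low-count filter through the WT libraries alone, and the fit did not call it (adjusted p = 0.13 and 0.072 in limma). With 3 reads over the group as the floor for a count of 0, the bound on how far KO lay below WT was 13.9-fold in DMSO and 14.02-fold in UNC0638. This covers counting error in KO only and takes the WT rate as exact. These bounds pool the WT libraries, the one at 0 included. By a check added after the values were seen, the DMSO bound was 8.10-fold without WT DMSO replicate 2 and 20.0-fold without replicate 1, and the UNC0638 bound lay between 11.5-fold and 15.9-fold without 1 WT library. The fitted log2 fold change in DMSO ran from -4.46 without WT DMSO replicate 1 to -1.99 without WT DMSO replicate 2.

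Pou3f1 had 151, 485 and 594 normalized counts in WT DMSO and 58.7, 142 and 103 in KO DMSO, and the groups did not overlap (log2 fold change -1.88, SE 0.57, adjusted p = 0.059). In UNC0638 it had 133, 605 and 758 in WT and 74.5, 143 and 130.1 in KO, and WT replicate 1 fell within the KO range (log2 fold change -1.81, SE 0.57, adjusted p = 0.083). On the recovered reads, edgeR and DESeq2 did call Pou3f1 in DMSO (adjusted p = 0.043 and 0.042) and in UNC0638 (adjusted p = 0.040 and 0.035). Without WT DMSO replicate 1, limma called Pou3f1 in DMSO (adjusted p = 0.017) and in UNC0638 (0.049), and without WT UNC0638 replicate 1 likewise (0.022 and 0.010). Fgf5 was called by DESeq2 in both (adjusted p = 0.0087 and 0.0099), and by limma in both without WT DMSO replicate 1 (adjusted p = 0.0095 and 0.014).

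Zic2 and Otx2 had the opposite direction in DMSO and were not called. Zic2 had 225, 202 and 202 normalized counts in WT and 522, 359.7 and 329.7 in KO (log2 fold change 0.92, SE 0.30, adjusted p = 0.073). Otx2 had 250.2, 199 and 113 in WT and 269, 324 and 303 in KO (log2 fold change 0.74, SE 0.26, adjusted p = 0.10). For both, every KO library lay above every WT library, and the share of all genes so separated was not counted. By another measure, 4158 of all 17258 genes had an unadjusted p under 0.05 in limma. In UNC0638 the KO and WT libraries overlapped, with log2 fold changes of 0.39 for Zic2 and 0.21 for Otx2.

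Lef1, Utf1, Sall2 and Tdgf1 overlapped between KO and WT in DMSO. Lef1 had 159, 200.5 and 472 normalized counts in WT and 184, 377 and 445 in KO (log2 fold change 0.34, SE 0.46, adjusted p = 0.70). Tdgf1 had 5918, 4929.9 and 5726 in WT and 5979, 5986 and 5722 in KO, a log2 fold change of 0.10 with the smallest standard error of the members, 0.13. The Utf1 and Sall2 log2 fold changes were 0.15 (SE 0.19) and -0.44 (SE 0.35). In UNC0638 Sall2 was lower in each KO library than in each WT library (log2 fold change -0.97, SE 0.35, adjusted p = 0.13).

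Several lists of cell type markers also differed between the genotypes, beside these values. The primitive endoderm markers overlapped, at 18.6 to 43.0 CPM in WT DMSO libraries and 17.7 to 27.3 in KO DMSO libraries. The 11 2-cell stage markers summed to 9.42 to 138 CPM in WT DMSO libraries and were all at 0 in the 3 KO DMSO libraries. Feeder markers summed to 251 to 348 CPM in WT DMSO and 133 to 179.8 in KO DMSO, and at most 2 of the 12 were at 0 in any library of these groups. The naive pluripotency genes summed to 4366 to 6063 CPM in WT DMSO and 6265 to 6687 in KO DMSO. The part of these differences in the members' values was not tested.

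**Figure D3:**
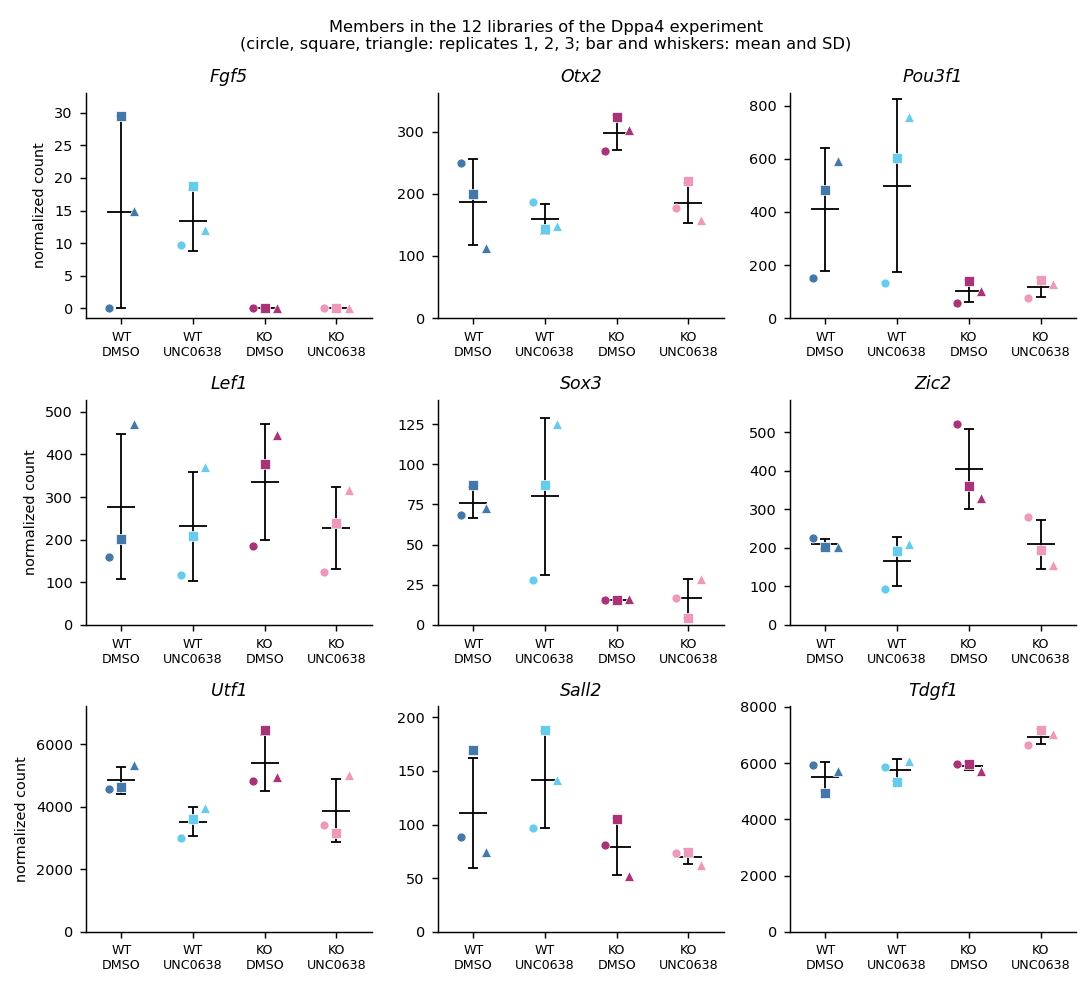
Each panel gives 1 member with its normalized count in the 12 libraries of the Dppa4 experiment on a linear axis; symbols mark replicates 1 to 3, the bar and whiskers the mean and SD of 3 libraries. Sox3 and Fgf5 are low in both KO groups, the 3 KO DMSO libraries of Sox3 lying near 15.7, and Pou3f1 and Lef1 have their lowest value in replicate 1 of all 4 groups.

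UNC0638 for 48 h changed no member by the call rule in either genotype. In WT, 0 of 9 members and 0% of all genes were called by limma, with 1504 genes at an unadjusted p under 0.05, while edgeR called 0 and DESeq2 13 genes. This fit did not pair the libraries by replicate number. With the number as a block, whose effects are shared by all 4 groups, limma also called 0 genes. A fit that pairs the WT libraries alone was not run, so that the block does not stand for one. Utf1 was the 1 member at an unadjusted p under 0.05: it had 4561, 4624 and 5351 normalized counts in DMSO and 3009.5, 3621 and 3948 in UNC0638 (log2 fold change -0.46, SE 0.19, adjusted p = 0.56). Its 3 UNC0638 libraries lay below its 3 DMSO libraries. Pou3f1 (0.16, SE 0.57) and Sox3 (-0.16, SE 0.59) had log2 fold changes smaller than their standard errors.

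In Dppa4 KO cells, 0 of 9 members were called with UNC0638, against 0.464% of all genes (80 genes, of which 71 were higher). Zic2 had 522, 359.7 and 329.7 normalized counts in KO DMSO and 279.6, 195 and 155 in KO UNC0638 (log2 fold change -0.95, SE 0.30, adjusted p = 0.14). Otx2 had 269, 324 and 303 and 177, 221 and 158 (log2 fold change -0.70, SE 0.26, adjusted p = 0.22). For both factors the treated libraries lay below all untreated ones, and the share of all genes so separated was not counted. By another measure, 2664 of all 17258 genes had an unadjusted p under 0.05 in limma. Tdgf1 had 5979, 5986 and 5722 in KO DMSO and 6632, 7163 and 7027 in KO UNC0638, without overlap in the upward direction (log2 fold change 0.23, SE 0.13, adjusted p = 0.43). Fgf5 stayed at 0 in all KO libraries.

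The difference between the UNC0638 effects of KO and WT was tested as an interaction. It was called for 0 of 9 members and 0% of all genes in limma (1076 genes at an unadjusted p under 0.05, and 0 called by edgeR and by DESeq2). The estimates ran from -0.83 (SE 1.64) for Fgf5 to 0.17 (SE 0.19) for Tdgf1. A difference between genotypes in the effect of UNC0638 was thus not detectable for these genes with 3 clones a group. Each library enters 2 of the 4 other contrasts.

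**Figure D4:**
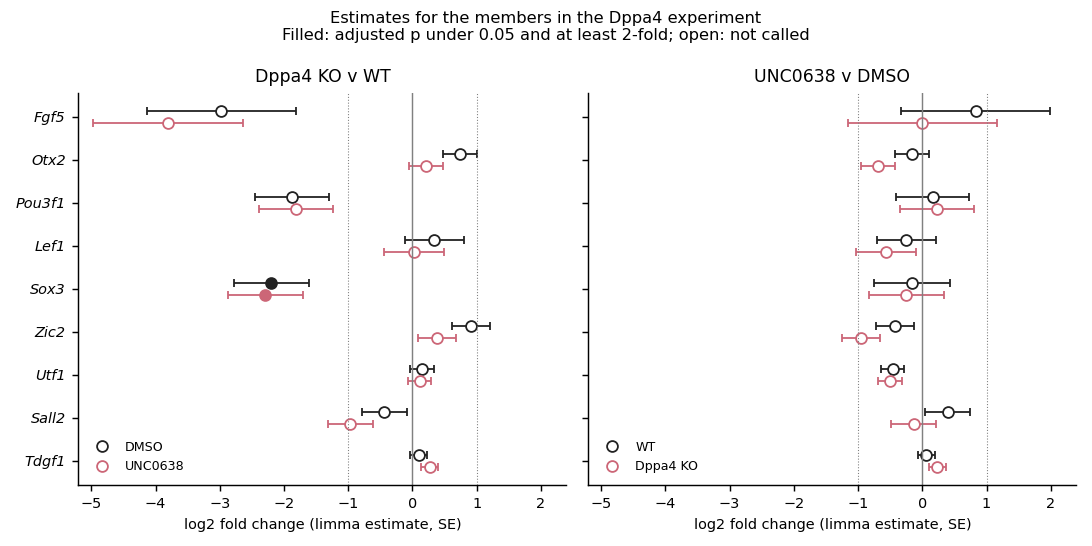
Points are limma log2 fold changes of the 9 members with their standard errors as whiskers, for KO against WT on the left (black DMSO, red UNC0638) and UNC0638 against DMSO on the right (black WT, red KO); filled points were called and dotted lines mark 2-fold. Sox3 holds the only filled points, at -2.20 and -2.29, and the Fgf5 estimates, which depend on the added count of 1 because KO is at 0, have the widest whiskers.

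Genes of the pathways around the members were counted from lists of named genes. The counts in KO DMSO stand beside 4.43% of all genes called, 230 higher and 535 lower of 17258. Of 15 other formative epiblast genes, 4 were called lower and 0 higher in KO DMSO (median log2 fold change -0.46, against -0.03 over all genes). They were Fst, an activin antagonist (-1.96, adjusted p = 0.0073 in limma), Lefty1, a NODAL antagonist (-1.73, 0.029), Grhl2, an epithelial transcription factor (-1.26, 0.0043), and Dnmt3b, a de novo DNA methyltransferase (-1.09, 0.029). For KO against WT in UNC0638, only Dnmt3b of these 15 was called lower and 0 higher, against 3.29% of all genes. The NODAL receptor pathway, in which Cripto acts, had 1 of 13 genes called lower, Lefty1, and 1 higher, the convertase gene Pcsk6 (1.16, adjusted p = 0.0059 in limma). Its co-receptor gene Tdgf1 was not called.

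Of 13 tested genes of the FGF and ERK pathway, 3 were called lower in KO DMSO and 1 higher, beside the 4.43% over all genes. Called lower were Fgf15 (-1.64), the receptor gene Fgfr2 (-1.31) and the ERK phosphatase gene Dusp4 (-1.30). Called higher was Fgfr3 (1.89), and adjusted p in limma ran from 0.0093 to 0.043. Spry4 (0.77), Etv4 (0.61) and Fgf4 (0.61) were higher by less than 2-fold, with adjusted p in limma from 0.021 to 0.046. The median log2 fold change of this list was 0.15, against -0.03 over all genes. It summed to 1530 to 1708 CPM in WT DMSO libraries and 2054 to 2109 in KO DMSO libraries. Of 12 genes of the WNT pathway and the TCF/LEF family, 0 were called in either direction, as for Lef1. Among 11 tested paralogs of the members, Sall3 was called higher in KO DMSO (1.05, adjusted p = 0.02 in limma) and Sox1 in KO UNC0638 (1.35, adjusted p = 0.039), the latter opposite to Sox3. Of 15 naive pluripotency genes, Klf4 (1.01), Tbx3 (1.43) and Tcl1 (1.36) were called higher and Dppa3 (-4.20) lower in KO DMSO. For KO against WT in UNC0638, Dppa3 was again called lower and 0 of the 15 naive genes higher. There, Fgf15, Dusp4 and Egr1 of the FGF and ERK list were called lower and 0 higher, and 0 genes of the NODAL list were called. In UNC0638 against DMSO, 0 genes of these lists were called in either genotype.

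In 2CLC against mESC of the DMSO arm, 23.7% of all 17277 genes were past 2-fold, 2541 higher and 1560 lower, which is the background of the counts that follow. There, 1 of the 15 other formative genes was past 2-fold higher (Grhl2, log2 ratio 1.60) and 5 lower, led by Foxd3 (-1.61) and Zic5 (-1.40), the chromosome neighbour of Zic2. In the NODAL pathway 4 of 13 were lower, led by Smad3 (-2.19), and 0 higher. In the WNT and TCF/LEF list 1 of 10 was higher, the feedback gene Axin2 (2.37), and 1 lower, Sp5 (-1.03), beside the lower Lef1. In the FGF and ERK list 2 of 13 were higher, Fgfr2 (1.61) and Spry2 (1.03), and 4 lower, led by Etv4 (-1.26). Of the naive list 1 of 15 was higher, Dppa3 (3.54), and 5 lower, led by Klf4 (-1.64), and of the core pair Sox2 was lower (-1.59) and Pou5f1 stood at -0.93.

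The gene most like each member over the 12 Dppa4 libraries was found among the 11658 genes with a mean of at least 50 normalized counts, by Pearson correlation of log2 normalized counts, given without a test. It was Pim2 for Pou3f1 (r = 0.95), a kinase gene that also stood in the list of other formative epiblast genes, and Bok for Sox3 (r = 0.96). Pim2 had means of 629 normalized counts in WT DMSO and 233 in KO DMSO, and Bok 324 and 86.7. For Otx2 it was Zc3hav1 (r = 0.96) and for Zic2 Sesn2 (r = 0.96). Fgf5 was most like Adamts14 (r = 0.95), Tdgf1 most like Cog6 (r = 0.94), Sall2 most like Lrrc8c (r = 0.89) and Utf1 most like Gm47428 (r = 0.97). For Lef1 it was Tubb4b-ps1 (r = 0.94), a pseudogene that can share reads with its parent gene, which makes its counts uncertain. The 12 points share their genotype, treatment and clone numbering, which enter every one of these correlations.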

How the data were processed

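RNA-seq of mESCs was used, 45 libraries in 15 groups, prepared with stranded mRNA kits (time course, washout), by a low-input protocol (sorted cells) or after polyA enrichment (Dppa4 experiment). Per the paper and the submitters' processing notes, reads were trimmed with Trim Galore (version 0.6.7), aligned to mm10 with STAR (2.7.10) without introns, placed at the best-scoring position when they had several (at random among equally good ones), counted on GENCODE vM25 genes with TEcounts and divided by DESeq2 (1.34.0) size factors. TEcounts was run at its default settings, which do not use strand. The deposited signal values are these normalized counts: per library in the Dppa4 experiment, and as the authors' group means, with no spread and of unknown depth, in the time course, washout and sorting experiments (33 libraries). Tables of repeat elements and of the authors' own fold changes and p-values were not used.

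For the Dppa4 experiment, 100% of values were whole reads after multiplication by the size factor (tolerance 0.001), at 8399885 to 12710949 gene reads a library, and intervals or floors from them cover counting error only. Log2(normalized count + 1) was fitted with limma (3.58.1 in R 4.3.3, trend on) over the 4 groups for 17258 genes that passed the edgeR low-count filter, of 30115 with a read, with Benjamini-Hochberg adjustment over all of them, and edgeR (4.0.16) and DESeq2 (1.42.0) were run on the recovered reads. The fit was run on simulated reads with the same dispersion for all genes and no clone effects, which does not check it at the spread of these clones. Group means were compared within a table as log2((mean + 1)/(mean + 1)) for genes averaging at least 10, with no test. Per-million values divide by the summed gene values of the group.

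Named were all 9 members, the gene most correlated with each, and, from the other lists, genes called or past 2-fold. The members and lists were chosen with earlier results of these data known. Replicate numbers deviated together between WT DMSO and WT UNC0638 (correlations of deviations from group means 0.10 to 0.43 over 3 pairs), so that they pair those groups, which the main fit did not use. They did not between KO DMSO and KO UNC0638 (-0.09 to 0.15), WT DMSO and KO DMSO (-0.07 to 0.07) or WT UNC0638 and KO UNC0638 (-0.09 to 0.12). Across both genotype and treatment the correlations were 0.04 to 0.17 (WT DMSO with KO UNC0638) and 0.07 to 0.13 (WT UNC0638 with KO DMSO). Alternatives were pseudocounts of 0.5 and 5, TMM scaling, filters, both count tools, the replicate block and leaving out each library. Locations are from GENCODE vM21 on mm10, promoters from RefSeq.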

Additional observations from a re-analysis of the deposited data

How the results depend on the processing

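Of 890 single-member results under the alternatives, 816 kept their direction and side of the threshold, 47 reversed, 14 became called and 13 lost a call. With no filter on low values or a mean of at least 50, 0 members were called for KO against WT in either treatment (the latter filter removes Sox3), against 2 with edgeR, 2 with the replicate block and 3 with DESeq2 in each. Leaving out 1 library gave 0 to 2 members in DMSO and 0 to 3 in UNC0638, and 286 to 969 and 190 to 665 genes called of all tested, with 286 without WT DMSO replicate 2, 431 without WT DMSO replicate 3, 369 without KO DMSO replicate 1 (DMSO), and 190 and 194 without WT UNC0638 replicates 2 and 3 (UNC0638). In UNC0638 a mean of at least 50 gave 360 genes and DESeq2 865. For UNC0638 in KO, 12 genes were called with no filter, 47 at a mean of at least 50, 172 with the replicate block, 37 with edgeR, 255 with DESeq2 and 2 to 365 without 1 library (365 without KO UNC0638 replicate 1 and 2 without KO UNC0638 replicate 2, and past 1.5 times in 8 of 12 such fits). For UNC0638 in WT, DESeq2 called 13 genes, and leaving out 1 library gave 0 to 1 there and 0 to 1 for the interaction. The replicate block gave 1021 genes for KO against WT in DMSO and 753 in UNC0638 and added Pou3f1 (adjusted p in limma = 0.0012 and 0.0021). It changed no other call of a member, and 9 of 12 libraries correlated best with one of their own number.

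Some estimates that were not called changed sign with the tool: for UNC0638 in WT, Fgf5, whose estimate in limma was the largest of the 9 at 0.83, was -0.12 with edgeR and -0.12 with DESeq2 and Sox3 0.090 and 0.091. For UNC0638 in KO, Sox3 was 0.096 and 0.088, and for KO against WT in UNC0638, Lef1 was -0.029 and -0.043 in that order. For the interaction, Fgf5 was -0.83 in limma and 0.12 with edgeR, Pou3f1 -0.096 with edgeR and -0.10 with DESeq2, and Sox3 0.0050 with a pseudocount of 5 and 0.0058 with edgeR. For UNC0638 in WT, Fgf5 (-0.65 to 1.81), Otx2 (-0.49 to 0.080), Pou3f1 (-0.44 to 0.94), Lef1 (-0.66 to 0.22), Sox3 (-0.60 to 0.46), Tdgf1 (-0.017 to 0.12) changed sign when some 1 library was left out. For UNC0638 in KO, Pou3f1 (-0.12 to 0.52), Sox3 (-0.79 to 0.45), Sall2 (-0.40 to 0.096) changed sign when some 1 library was left out. For KO against WT in UNC0638, Lef1 (-0.39 to 0.44), Utf1 (-0.092 to 0.24) changed sign when some 1 library was left out. For the interaction, Fgf5 (-1.81 to 0.65), Pou3f1 (-0.71 to 0.67), Lef1 (-0.78 to 0.10), Sox3 (-0.71 to 0.61), Utf1 (-0.24 to 0.094) changed sign when some 1 library was left out. The cause was not tested.

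For the group means no library could be left out and no paired fit made. Genes past 2-fold, with all nonzero genes and then at an average of at least 50, numbered 2775 and 247 for dTAG 24 h, 3884 and 575 for dTAG 7 d, 1585 and 108 for DMSO 7 d against 24 h, 2799 and 386 for dTAG 15 d, 1512 and 210 for Recovery against DMSO, 3278 and 566 for Recovery against dTAG, 9130 and 2336 for 2CLC against mESC in DMSO, 8480 and 1993 for the same in dTAG, 4100 and 370 for dTAG in mESC, 5195 and 567 for dTAG in 2CLC, since more or fewer low genes entered. With a pseudocount of 5, 193 genes were past 2-fold for DMSO 7 d against 24 h and 0 members for dTAG 15 d, where an average of at least 50 also gave 0 because it removes Fgf5. With all nonzero genes, 1 member (Fgf5) was past 2-fold for DMSO 7 d against 24 h. Low counts limit Fgf5, and Sox3 in the KO libraries.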

Other observations

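Markers of other lineages, outside the epiblast, also differed in 2CLC. In the DMSO arm 4 of 7 primitive endoderm markers were past 2-fold higher than in mESC, Gata6 (1.06), Sox17 (3.07), Dab2 (1.59) and Amot (3.04), and 0 lower. Of 5 trophoblast markers that averaged at least 10 normalized counts, 3 were higher, Gata3 (4.08), Krt8 (1.33) and Ascl2 (1.04), and Tfap2c was lower (-2.03). The sum over all 8 listed trophoblast markers was lower in 2CLC, at 65.6 CPM against 138 in mESC. Of 6 primitive streak and germ layer genes, 2 were lower, Eomes (-1.20) and Sox1 (-2.74). The values in brackets are log2 ratios of group means without a test, beside 23.7% of all genes past 2-fold.

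In the Dppa4 experiment, of 6 tested trophoblast markers 1 was called lower in KO DMSO, Hand1 (-5.40, adjusted p = 0.0045 in limma), and 0 higher. Of 6 tested primitive streak and germ layer genes 1 was called lower, Cdh2 (-1.79, adjusted p = 0.016 in limma), and 0 higher, while Sox1 stood at 1.00, Gsc at 0.92 and Eomes at 0.21 without a call, beside 4.43% of all genes called. Of 10 tested feeder markers, Prrx1 (-1.28) and Twist2 (-1.80) were called lower there, and of 6 primitive endoderm markers 0 were called in either direction.

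Lef1 and Pou3f1 each had their lowest value in replicate 1 in 4 of 4 Dppa4 groups, and Lef1 had its highest in replicate 3 in 4 of 4. Sox3 had its highest value in replicate 3 in 3 of 4 groups, and Otx2 in 0 of 4. The labels do not say that a replicate number marks the same batch in different groups.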
